A study of Mus musculus with 6 samples.

Results

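The genes described here encode the Tal1 protein complex of blood and endothelium, the E proteins that pair with it and the Ldb cofactors that hold it together. They are Tal1, Lyl1, Lmo2, Lmo4, Ldb1, Ldb2, Tcf3, Tcf4 and Tcf12, 9 of the 22180 genes measured with an unambiguous symbol. They were chosen by name, as known partners and paralogs, with earlier results of the same arrays in view, in which Ldb2 stood among the strongest rises. Each gene was to be read on its brightest probe, by the mean of the 6 arrays, and each had exactly 1 probe with a single symbol. Values of Ldb2, and of Ldb2 set against Ldb1, are therefore descriptions with no test. The study looked at blood cell production by endothelium of the bone marrow. Its 6 arrays measured RNA of sorted LSK cells, which lack mature lineage markers and carry Sca-1 and Kit, from C57Bl6 mice at postnatal day 27. All mice carried Tg(Cdh5-Cre/ERT2), a Cre recombinase driven by the endothelial Cdh5 promoter and switched on by tamoxifen, and a Rosa 26 YFP reporter. Tamoxifen was given on days 1, 2 and 3 of life to the mice of both groups, and per the labels the groups differ in the sort: 3 samples were YFP-positive, from cells in which Cre had been active in the cell or a forebear, and 3 were YFP-negative. The labels do not say whether replicates came from separate or pooled animals, so the p-values reflect the scatter among these samples alone, part of which may be technical.

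Tal1 and its paralog Lyl1 are basic helix-loop-helix factors that bind DNA as dimers with the widely expressed E proteins Tcf3 (E2A), Tcf4 (E2-2) and Tcf12 (HEB). The LIM-only protein Lmo2 bridges such a dimer to a GATA factor, and Ldb1 binds Lmo2 and self-associates, which brings distant enhancers and promoters together. Blood stem cells and endothelium share much of this machinery. Ldb2 and Lmo4 are paralogs of Ldb1 and Lmo2. Id proteins, which lack the DNA-binding stretch, hold E proteins inactive.

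RefSeq promoter sequences of build GRCm38.p6 matched 6 of the 9 genes. Those of Tal1 and Lyl1 are shown because these closely related factors had overlapping levels in the populations. Tal1 had 2 windows, of which 1 is shown, and the matches given below are of that window alone. The windows are chr4:115056176-115056425 for Tal1 and chr8:84701207-84701422 for Lyl1, both on the plus strand and upstream of the annotated gene.
Tal1: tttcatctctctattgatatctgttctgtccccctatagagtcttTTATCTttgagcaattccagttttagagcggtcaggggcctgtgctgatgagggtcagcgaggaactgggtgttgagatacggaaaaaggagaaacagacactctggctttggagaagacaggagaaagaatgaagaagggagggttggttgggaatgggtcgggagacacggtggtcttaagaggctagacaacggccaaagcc
Lyl1: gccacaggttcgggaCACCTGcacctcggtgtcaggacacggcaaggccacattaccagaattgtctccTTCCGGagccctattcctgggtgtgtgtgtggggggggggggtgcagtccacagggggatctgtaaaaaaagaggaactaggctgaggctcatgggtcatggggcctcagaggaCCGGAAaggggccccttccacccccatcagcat
Capitals mark matches on either strand to an E-box (CANNTG), a GATA motif (AGATAA) or an ETS motif (CCGGAA), which did not overlap one another. The Tal1 window of 250 bases held 1 GATA match, beginning 205 bases before its start site, and no match to the other motifs. The Lyl1 window of 216 bases held 1 E-box match, beginning 235 bases before its start site, and 2 ETS matches, beginning 181 and 67 bases before it. Of 32851 promoter windows cut to 250 bases, 9.99% held the GATA motif, 66.2% the E-box and 12.0% the ETS motif, and cut to 216 bases the shares were 8.92%, 61.6% and 9.21%. A match is a run of letters, and no binding was measured on these arrays.

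Values are log2 expression levels, and each array had a median of 3.62 to 3.68. A level near these medians cannot be told from background. The sort gate itself was checked on marker lists. The gate gene Kit measured 6.98, 6.56 and 7.06 in YFP-positive and 7.57, 7.96 and 7.74 in YFP-negative samples, and Ly6a, which encodes Sca-1, was not analysed here. Of the lineage markers the gate should lack, the B cell gene Ms4a1 (2.44 to 2.74) and the T cell gene Cd3g (2.63 to 2.93) lay below every array median, but not all did. The B cell gene Cd79b measured 5.60, 5.47 and 5.04 in YFP-negative and 3.30, 3.33 and 3.49 in YFP-positive samples (limma adjusted p = 0.0031), the T cell gene Cd3d 5.70 and 4.93 on the number 3 arrays of these populations. The neutrophil gene S100a8 stood at 10.5 to 12.6 on all 6 arrays. Differences are YFP-positive minus YFP-negative, fitted with limma over all 22180 genes, with Benjamini-Hochberg adjustment and a threshold of 0.05.

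YFP-positive LSK samples held far more Ldb2 transcript than YFP-negative ones, while its paralog Ldb1 overlapped between them. Ldb2 measured 10.75, 10.39 and 9.79 in the YFP-positive samples and 3.42, 4.27 and 3.52 in the YFP-negative samples. The groups lay far apart, and YFP-negative replicates 1 and 3 lay below the array medians. The mean difference was 6.57 ± 0.33 (SE, n = 3 each), or 95.2-fold with a 95% interval of 54.8 to 165. This interval is no test, since Ldb2 was chosen with its difference known. The fold can understate the change since the lower level is near background. Ldb1, the cofactor of the Tal1 complex in blood, measured 8.75, 8.09 and 8.84 against 8.22, 8.85 and 8.31. Its groups overlapped, with a difference of 0.10 ± 0.27 (SE) and a 95% interval from -0.55 to 0.75 (adjusted p = 0.910). Within each array, Ldb2 minus Ldb1 was 2.00, 2.31 and 0.95 in YFP-positive and -4.80, -4.58 and -4.78 in YFP-negative samples. The mean of this quantity shifted by 6.47. The pair was chosen for its difference, so the shift is a description, and it sets no level of one against the other. In such bulk samples, fewer cells of a type and less RNA per cell cannot be told apart.

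**Figure D1:**
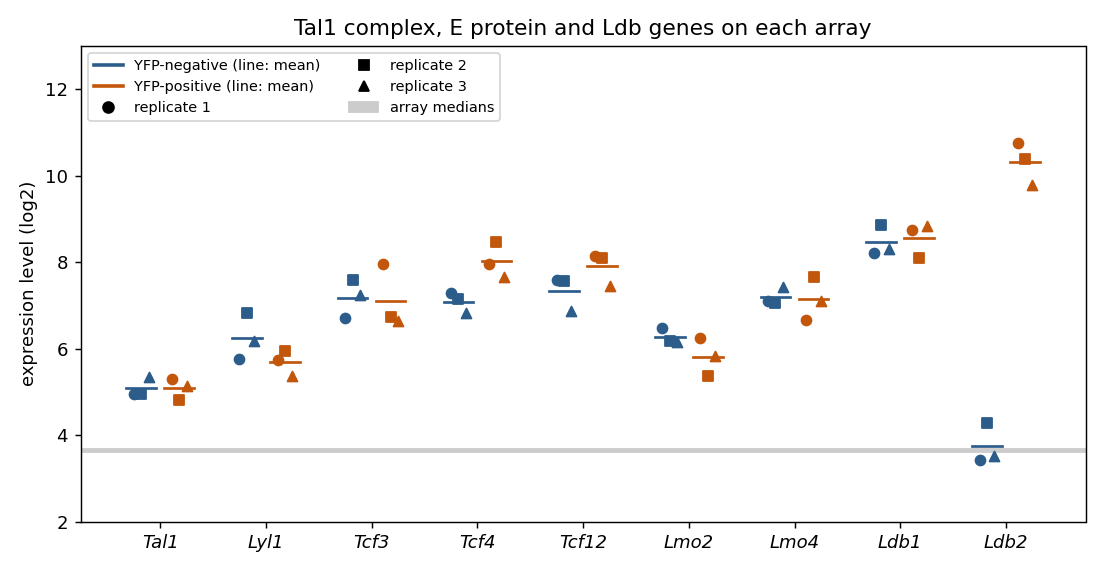
Log2 expression level (vertical axis) of the 9 genes on each array. Each point is 1 array, its shape gives the replicate number, short lines are the means of 3 arrays, and the grey band spans the array medians (3.62 to 3.68). Ldb2 stands between 9.79 and 10.75 in YFP-positive and between 3.42 and 4.27 in YFP-negative samples, and the groups also do not overlap for Tcf4.

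Among the E proteins, Tcf4 measured higher in every YFP-positive sample but did not pass the test, and Tcf3 and Tcf12 overlapped between the populations. Tcf4, the E protein on which plasmacytoid dendritic cells depend, measured 7.96, 8.47 and 7.65 in YFP-positive and 7.28, 7.16 and 6.82 in YFP-negative samples. The lowest YFP-positive sample lay above the highest YFP-negative one. The difference was 0.94 ± 0.24 (SE, n = 3 each), 1.91-fold with a 95% interval of 1.28 to 2.87 (limma adjusted p = 0.0995, and 0.0625 to 0.230 over 13 alternative fits, none of which passed). Tcf12, needed with Tcf3 for early T cell development, measured 8.14, 8.11 and 7.46 against 7.58, 7.56 and 6.86. Only YFP-positive replicate 3 fell within the YFP-negative range, and the difference was 0.57 ± 0.28 (95% interval -0.11 to 1.25, adjusted p = 0.380). Tcf3, which drives the B cell program, measured 7.95, 6.74 and 6.64 against 6.72, 7.59 and 7.23. YFP-positive replicate 1 held the highest Tcf3 value of all arrays and replicate 3 the lowest, and the interval was the widest of the 9 (-1.07 to 0.92, difference -0.08, adjusted p = 0.960). The plasmacytoid dendritic cell genes Siglech and Spib stayed at 3.17 to 3.65 on all arrays, and 0 of the 7 markers of that cell type were called by limma in either direction (2 had an unadjusted p under 0.05, as had 17.2% of all genes). Those were Irf8, at 8.97, 8.18 and 9.06 in YFP-positive against 8.09, 7.61 and 8.14 (difference 0.79, adjusted p = 0.216), and Cox6a2, at 4.99, 4.86 and 5.21 against 7.32, 8.71 and 6.33 (difference -2.43, adjusted p = 0.0790). The groups overlapped for neither, where 22.7% of all genes had groups that did not overlap in either direction. Klk1, also on that list, stood at 6.75 on YFP-negative replicate 1 and at 2.25 to 2.68 on the other arrays. The part of such cells in the Tcf4 level was not tested.

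The helix-loop-helix factors that pair with E proteins overlapped between the populations. Tal1, required for all blood formation, measured 5.31, 4.81 and 5.13 in YFP-positive and 4.95, 4.95 and 5.34 in YFP-negative samples. Its difference was 0.00 ± 0.18 (SE), with a 95% interval from -0.44 to 0.45, the narrowest of the 9 (adjusted p = 0.997). Lyl1, which can stand in for Tal1 in adult stem cells, measured 5.75, 5.96 and 5.37 against 5.76, 6.82 and 6.18. YFP-negative replicate 1 fell among the YFP-positive values, and the difference was -0.56 ± 0.30 (95% interval -1.29 to 0.16, adjusted p = 0.429).

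The LIM-only adaptors overlapped as well. Lmo2, the bridge of the complex, measured 6.24, 5.38 and 5.84 against 6.48, 6.18 and 6.15. YFP-positive replicate 1 lay within the YFP-negative range and the other YFP-positive samples below it. The difference was -0.45 ± 0.24 (95% interval -1.03 to 0.13, adjusted p = 0.423). Lmo4, a LIM-only protein found in many epithelia, measured 6.65, 7.66 and 7.10 against 7.11, 7.06 and 7.43. Its YFP-positive samples held both the highest and the lowest value, with a difference of -0.06 ± 0.27 (95% interval -0.72 to 0.59, adjusted p = 0.949).

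Of the 8 genes other than Ldb2, limma called 0 in either direction (1, Tcf4, had an unadjusted p under 0.05, as had 17.2% of all genes). In the same fit 4.84% of all genes were called, 2.88% higher and 1.96% lower, and since the genes were chosen with this contrast known nothing is read from that count. The median difference of the 9, Ldb2 included, was 0.00, beside -0.01 over all genes. Apart from Ldb2, whose gap was known when it was chosen, the groups did not overlap for 1 of the other 8, Tcf4, against 22.7% of all genes. For 3 of the 9, Tal1, Lmo4 and Ldb1, the 95% interval lay between -1 and 1, a change smaller than 2-fold in either direction, as it did for 72.7% of all genes. All 9 genes had a mean over the arrays above the median gene mean of 3.96, so a filter on low values kept all of them, Ldb2 through its YFP-positive level alone.

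**Figure D2:**
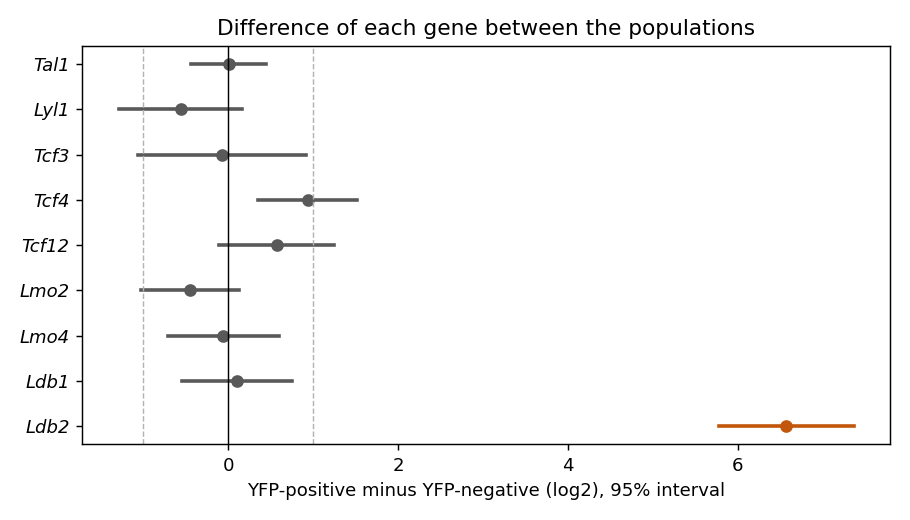
Log2 difference of each gene between the populations, YFP-positive minus YFP-negative, with its 95% interval from limma (3 arrays each). The orange bar marks Ldb2 at 6.57, chosen with this difference known, so its interval is no test. The dashed lines mark a 2-fold change. The interval of Tcf4 (0.35 to 1.52) lies above 0, and those of the other 7 genes include 0.

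Other pairs of related genes, 4 in all, were compared within each array, which asks whether they changed unequally. Tcf4 minus Tcf3 shifted by 1.01 between the populations (exact permutation test, two-sided p = 0.2), from a mean of -0.09 ± 0.57 in YFP-negative to 0.92 ± 0.86 in YFP-positive samples (SD, n = 3 each). Tcf4 minus Tcf12 shifted by 0.37 (exact p = 0.2), Tal1 minus Lyl1 by 0.56 (exact p = 0.3) and Lmo2 minus Lmo4 by -0.39 (exact p = 0.7). Adjusted over these 4 pairs the p-values were 0.4, 0.4, 0.4 and 0.7, and 3 against 3 samples cannot go below 0.1. Groups overlapped in each of the 4, so unequal change was not shown for any of them. Leaving out 1 array moved the shifts to 0.61 to 1.47 for Tcf4 minus Tcf3, 0.25 to 0.52 for Tcf4 minus Tcf12 and 0.22 to 0.83 for Tal1 minus Lyl1.

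The other genes of the pathway were grouped by role. Of 13 partners and regulators of the Ldb cofactors limma called 0 (2 had an unadjusted p under 0.05, as had 17.2% of all genes). The Ssbp proteins shield Ldb1 from degradation. Ssbp2 measured 6.90, 6.27 and 6.17 in YFP-positive and 7.50, 7.26 and 6.81 in YFP-negative samples (difference -0.74, adjusted p = 0.221), with YFP-positive replicate 1 inside the YFP-negative range. Lhx2, a LIM-homeodomain partner, measured 0.34 higher, at 3.63 to 3.82 against 3.33 to 3.43, which is near the array medians (adjusted p = 0.160). Of 9 other helix-loop-helix factors that can pair with E proteins, limma called 0 (0 had an unadjusted p under 0.05). Bhlha15 and Twist1, with the smallest p of that list, differed by 0.43 and -0.49 (adjusted p = 0.473 and 0.619). Twist1 stood at 5.52 on YFP-negative replicate 3 and at 4.00 to 4.25 on the other arrays.

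Of 8 factors that share enhancers or DNA sites with the complex, 1 fell and 7 did not pass (1.96% of all genes were called lower). Runx1, needed for blood to emerge from endothelium, measured 6.47, 6.24 and 6.48 against 7.21, 8.06 and 7.83. All 3 YFP-positive samples lay below the YFP-negative ones (difference -1.30 ± 0.23, adjusted p = 0.0359). Runx1 lost its call without each array except YFP-negative replicate 1 (adjusted p = 0.0171 to 0.108 over those 6 fits). Erg and Fli1, ETS factors of both blood and endothelium, differed by 0.57 and 0.24 and did not pass (adjusted p = 0.228 and 0.531). Gata2, the GATA partner of stem cells, measured 5.49, 5.71 and 5.43 against 6.83, 5.50 and 5.13, with overlapping groups (adjusted p = 0.834). Erg, Fli1 and Gata2 are named as parts of the complex's shared enhancer set, after their values were seen.

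Among corepressors and cofactors limma called 0 of 9 (4 had an unadjusted p under 0.05, as had 17.2% of all genes). Their differences had a median of -0.61 and were below 0 for all 9 genes, or 8 of 9 after quantile normalization. Cbfa2t3 (Eto2), the corepressor bound by Tal1 dimers, measured 5.84, 6.23 and 5.80 against 6.85, 7.37 and 6.44 (difference -0.93, adjusted p = 0.128). Hdac2, a histone deacetylase, measured 8.25, 8.46 and 8.44 against 9.30, 8.95 and 8.72 (difference -0.61, adjusted p = 0.135). For both genes every YFP-positive value lay below every YFP-negative value, as it did for 6 of the 9 genes on the list, where 22.7% of all genes had groups that did not overlap in either direction.

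Of the 4 Id inhibitors, Id3 rose and Id1, Id2 and Id4 did not pass (2.88% of all genes were called higher). For each of the 4 genes the groups did not overlap (22.7% of all genes). Id3 measured 8.43, 6.87 and 7.59 in YFP-positive and 4.44, 3.56 and 4.02 in YFP-negative samples, a difference of 3.62 ± 0.43 (SE, 12.3-fold, adjusted p = 0.0100). Id2, which restrains E proteins in innate lymphoid cells, measured 8.62, 9.59 and 8.70 against 7.10, 5.23 and 7.37 (difference 2.40, adjusted p = 0.0947). Id1 measured 6.49, 6.10 and 5.79 against 5.22, 4.39 and 5.20 (difference 1.19, adjusted p = 0.0856), and Id4 measured 5.86, 5.69 and 5.08 against 4.69, 4.89 and 4.84 (0.74, adjusted p = 0.143). When YFP-positive replicate 3 was left out, Id4 passed (adjusted p = 0.0213, the lowest of 6 such fits, which reached 0.331).

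The targets of the complex and of E proteins were split by tissue. Of 8 endothelial targets 7 rose, where limma called 2.88% of all genes higher. Angpt2 did not pass, at 4.61, 3.00 and 3.91 against 2.64, 2.80 and 2.87 (adjusted p = 0.231). For all 8 the groups did not overlap, as for 22.7% of all genes in either direction. The list's median difference was 3.29. Cdh5, the gene whose promoter drives the Cre, rose by 7.03, the VEGF receptor gene Kdr by 6.67, Tek by 5.39 and the co-receptor gene Nrp2 by 3.37 (adjusted p = 0.00341 for Nrp2, the highest of these 4). The YFP-negative values were 3.86, 3.60 and 3.43 for Kdr, 5.40, 4.55 and 3.71 for Cdh5, 4.38, 4.67 and 3.49 for Tek and 3.94, 3.95 and 4.16 for Nrp2, many of them near the array medians, so these sizes can be understated. Cdh5, Kdr, Tek and Tie1, another of the 7 that rose, are also on the endothelial marker list. Of 9 measured erythroid and megakaryocytic targets, Kit fell by 0.89 (adjusted p = 0.0496) and 8 did not pass, where 1.96% of all genes were called lower. Kit lost its call whichever array was left out (adjusted p = 0.0598 to 0.148). The list's median difference was 0.04.

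Of 12 measured lymphoid targets of E proteins, 2 fell, 1 rose and 9 did not pass (median 0.10). Over all genes limma called 1.96% lower and 2.88% higher. All YFP-positive values lay above all YFP-negative ones for 4 of the 12 and below them for 2. Over all genes the groups did not overlap for 22.7%, in either direction. Dntt, the terminal transferase, measured 7.70, 8.13 and 8.76 against 10.98, 10.98 and 10.70 (difference -2.69 ± 0.28, adjusted p = 0.00603). Il7r, the interleukin 7 receptor gene, measured 3.09, 2.90 and 2.96 against 5.08, 5.71 and 5.14 (difference -2.33, adjusted p = 0.0026), and its YFP-positive values lay below the array medians. Foxo1, a forkhead factor that is also expressed in endothelium, measured 8.05, 7.81 and 7.92 against 6.71, 6.37 and 6.95 (difference 1.25, adjusted p = 0.0161). It lost its call without YFP-positive replicate 1 or YFP-negative replicate 1 (adjusted p = 0.0608 and 0.0643, where the 6 such fits began at 0.0250) and as the mean of its probes (0.93, adjusted p = 0.141). The early B cell genes Ebf1, Pax5 and Vpreb1 stayed between 2.94 and 4.62 on all arrays.

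**Figure D3:**
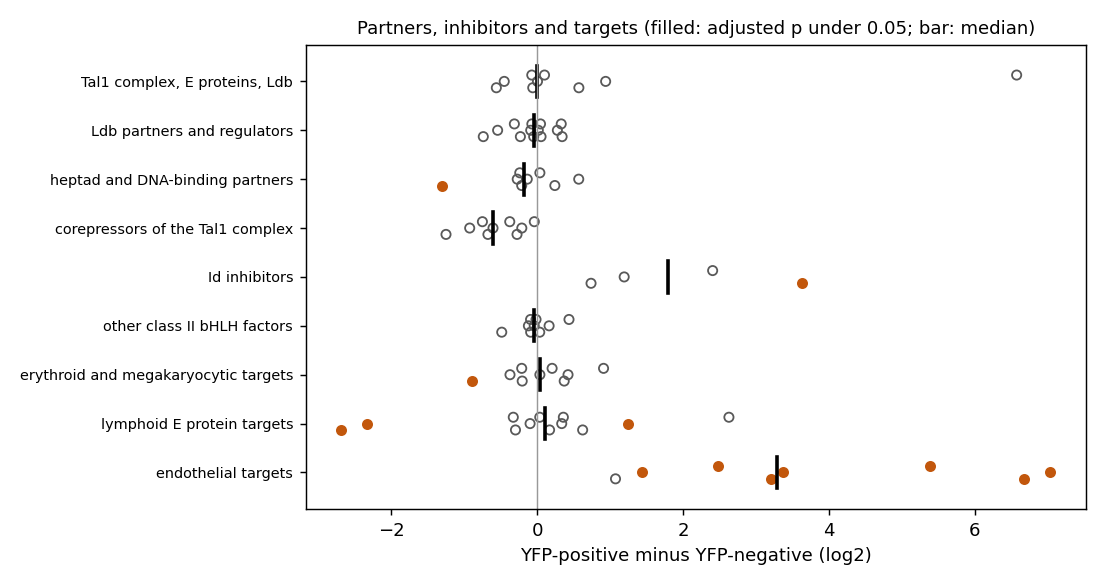
Differences (YFP-positive minus YFP-negative, log2) of single genes, grouped by role. Each circle is a gene, filled circles passed an adjusted p of 0.05 and black bars are medians. The endothelial targets have a median of 3.29, the 4 Id inhibitors of 1.80 and the 9 corepressors and cofactors of -0.61. Ldb2, chosen with its difference known, is drawn open with no test.

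Markers of other cell types were read on the same arrays. All 12 endothelial markers rose, or 11 of 12 with the arrays centred on their medians. In the main fit limma called 2.88% of all genes higher. The log2 of the summed level of these markers was 13.3 to 13.8 in YFP-positive and 8.47 to 9.64 in YFP-negative samples. Of 10 broad leukocyte markers 1 fell, Vav1, and 9 did not pass (1.96% of all genes were called lower). Vav1 measured 5.08, 5.28 and 5.22 in YFP-positive and 8.16, 7.44 and 7.66 in YFP-negative samples. The groups did not overlap for 3 of the 10, where 22.7% of all genes had groups that did not overlap in either direction. Against the YFP-negative mean, the median of the leukocyte markers was -2.52, -2.40 and 0.18 in YFP-positive replicates 1, 2 and 3, and Ptprc, which encodes CD45, measured 6.52, 6.95 and 9.52 against 9.23 to 9.37. On the same arrays the median of the 9 genes described here was 0.29, -0.27 and 0.05 from the YFP-negative mean. On YFP-positive replicate 3 the median of the leukocyte markers stood near the YFP-negative level. Vav1, Laptm5 and Ptpn6 lay below every YFP-negative value on that array, and the rest of the list did not. Ldb2 was lowest of the 3 YFP-positive samples there, at 9.79 but 6.05 above the YFP-negative mean. The endothelial markers had a median of 4.13 there, against 4.53 and 4.60. Tcf4 and Tcf12 were also lowest there among the YFP-positive samples, at 0.57 and 0.13 above the YFP-negative mean. Neutrophil markers, of which limma called 0 of 9 (0 had an unadjusted p under 0.05), were highest on the arrays numbered 3, with medians of 2.25 and 1.59 above the YFP-negative mean in YFP-positive and YFP-negative cells. Summed on the linear scale, the log2 level of the leukocyte list ran from 10.0 to 12.5 in YFP-positive and 12.2 to 12.3 in YFP-negative samples, and that of the neutrophil list from 13.5 to 14.6 and from 12.4 to 14.3. The part of these other cell types in the levels above was not tested. Without the number 3 arrays of both populations, an alternative chosen after seeing the data, Ldb2 differed by 6.73, Tcf4 by 0.99 (adjusted p = 0.122) and Id3 by 3.65, and Id3 then lost its call (adjusted p = 0.0726, and 0.0042 to 0.0726 over 13 alternatives).

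**Figure D4:**
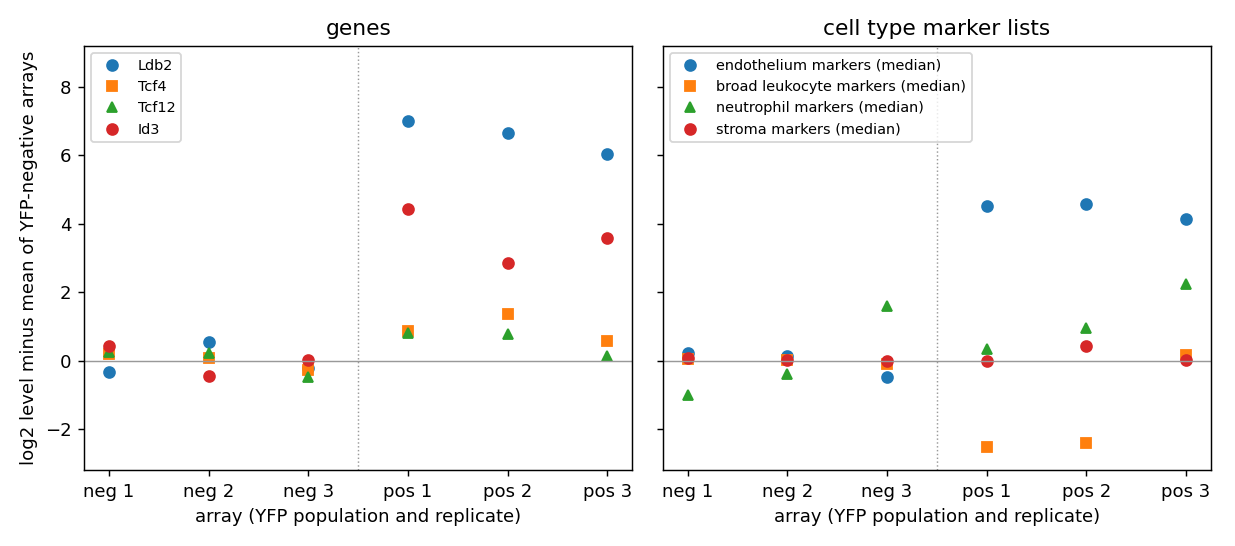
Log2 level minus the mean of the 3 YFP-negative arrays, for Ldb2, Tcf4, Tcf12 and Id3 (left) and for the median of 4 marker lists (right), on each array. Ldb2 and the endothelial markers are high on all 3 YFP-positive arrays, and the leukocyte markers are at -2.52 and -2.40 on replicates 1 and 2 but at 0.18 on replicate 3.

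Finally, the genes with the profile most like that of Ldb2 over the 6 arrays were found by the root mean square distance between log2 profiles after removing each gene's mean. They were Gpihbp1, the capillary anchor of lipoprotein lipase (distance 0.19), Gpr182, a receptor of sinusoidal and lymphatic endothelium (0.28), Tjp1, a scaffold of tight junctions (0.30), the membrane glycoprotein gene Gpm6a (0.32) and Cd36, which carries fatty acids into cells (0.33). Gpihbp1 measured 10.72, 10.64 and 9.98 in YFP-positive and 3.89, 4.17 and 3.80 in YFP-negative samples, and like Ldb2 it was lowest in replicate 3 of the former and highest in replicate 2 of the latter. Lyl1 had the lowest difference of the 9 over all arrays, but Lmo2 was lower without YFP-positive replicate 1 (-0.67 against -0.59), YFP-positive replicate 3 (-0.46 against -0.40) or YFP-negative replicate 2 (-0.50 against -0.28). The genes nearest to Lyl1 were Mndal (distance 0.11), Mrps2 (0.12), Med9os, Wdr6 and Brf2 (0.13 each). Of these limma called 0 (Mrps2 and Med9os, 2 of the 5, had an unadjusted p under 0.05, as had 17.2% of all genes). Such likeness over 6 arrays in 2 populations is a description.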

How the data were processed

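The deposited table holds log2 expression values that the authors made from each array, 1 column per sample for 41345 probes. The submitters' processing notes name Partek. The sources used here do not give the background correction, summarisation, normalization or genome build, and the log2 scale was read from the values (1.53 to 13.7). Probe annotation listed 25335 probes, of which 23521 had 1 symbol. The brightest probe stood for each gene, which gave 22180 genes, with no filter on level.

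Populations were compared with limma 3.58.1 in R 4.3.3 (lmFit and eBayes, two-sided, Benjamini-Hochberg adjustment over all genes), a script also tested on simulated data. Genes and lists were chosen with earlier results of these data known. Rule-named genes were the 9 described, those of smallest p in each list (up to 4 past the threshold, otherwise up to 2), the 5 nearest profiles of the extreme genes, and Ptprc, Cdh5 and Kdr. Others were named after their values were seen. Some genes of the lists were not analysed here. The number of arrays limits the precision. 13 alternative fits were run.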

Additional observations from a re-analysis of the deposited data

How the results depend on the processing

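The difference of Ldb2, a description, ran from 6.35 to 6.84 over 13 alternative fits, and 0 of the other 8 genes were called in any of them. Leaving out 1 array gave -0.81 to -0.28 for Lyl1, -0.67 to -0.23 for Lmo2 and 0.33 to 0.79 for Tcf12. Leaving out 1 array turned the sign of Tal1 (-0.11 to 0.14), Lmo4 (-0.32 to 0.18), Tcf3 (-0.50 to 0.16), Ldb1 (-0.041 to 0.34), Gata2 (-0.62 to 0.23) and Lmo2 minus Lmo4 (-0.85 to 0.091). Quantile normalization gave -0.011 for Tal1 and 0.011 for Lmo4, and centring the arrays on their medians gave -0.018 for Tal1. Without the number 3 arrays, Lmo4 was at 0.070, Ldb1 at -0.12, Tcf3 at 0.19 and Twist1 at 0.033. The cause was not tested. With the replicate block, the calls over all genes numbered 580 against 1074. The difference of Ldb2 stayed at 6.57, as a block balanced over the groups must leave it. Same-numbered arrays deviated together only weakly (r = 0.10, 0.08 and 0.17 across genes, which are not independent replicates). Each array still correlated best with its own number, so whether the numbers mark pairs was not settled. The main fit took no pairs, since the labels give no factor besides the groups. With the block, Tcf4 and Tcf12 came closer to the threshold but did not pass (limma adjusted p = 0.0863 and 0.103). Runx1 and Kit lost their calls with the block (adjusted p = 0.0860 and 0.133) and with a mean-variance trend (0.0579 and 0.122), and Kit also under both normalizations (0.0536 and 0.0549). Leaving out 1 array gave 430 to 1185 calls over all genes. Levels near background limit the fold of Ldb2.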
